A study of Mus with 2 samples.

Results

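The DNA replication genes are 44 genes whose products license origins, unwind and copy DNA, supply nucleotides, seal the lagging strand and rebuild chromatin behind the fork. They were taken by symbol from the 27998 gene rows of the count tables, and each of the 44 was found on 1 row. All 44 are protein-coding in RefSeq on GRCm38.p6 and are spread over 16 chromosomes. The list is a functional one and used no value of these data, although it was chosen with earlier results of these data known.

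Before S phase, the ATPase ring formed by Mcm2 to Mcm7 is loaded onto origins by Cdc6 and Cdt1, and geminin (Gmnn) blocks reloading. The ring becomes an active helicase when Cdc45 and the GINS complex (Gins1, Gins2, Gins3) join it, with Mcm10 needed for firing. Primase and polymerase alpha start each strand, the clamp Pcna is loaded by the Rfc complex and holds the polymerases on DNA, and Rpa coats single strands. Most of these genes are E2F targets whose transcripts accumulate from late G1 into S phase, whereas mitotic genes such as Ccnb1 and Cdc20 follow in G2 and M. Most hematopoietic stem cells (HSCs) are quiescent, and erythroid progenitors divide rapidly.

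HSCs were sorted from tibias and fibulas of mice aged 8 to 12 weeks by the phenotype LSK (lineage-negative, Sca-1+, c-Kit+), FLT3-, CD150+ and CD48-, and were captured with 10x Genomics Chromium. The control library came from a pool of 5 Mx1-Cre; Id2+/+ mice and the other from a pool of 5 Mx1-Cre; Id2Δ/Δ mice. Both pools carried Mx1-Cre, an interferon-inducible recombinase active in blood cells and other tissues, and per the study's methods were taken 2 weeks after the inducer pIpC. One clause in the labels of the Id2Δ/Δ library names Id2+/+ bones, while its title and genotype give the deletion. Each genotype had 1 library, so genotype and library cannot be told apart, no test was possible, and every interval below is a 95% interval for counting error alone.

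Transcripts were counted as unique molecular identifiers (UMIs), and levels are UMIs per 1000000 UMIs of a class (CPM). The Id2+/+ library held 8612217 UMIs and the Id2Δ/Δ library 17140713, of which 46.3% and 22.4% lay in barcodes of 1 to 100 UMIs, taken as empty droplets with free RNA. After filters, 333 and 625 cells remained, and 1 barcode occurred among the cells of both libraries. Id2 itself gave 19 UMIs (12.7 CPM) in Id2+/+ stem cells and 29 UMIs (62.8 CPM) in Id2+/+ neutrophil cells. It gave 0 UMIs in each class of the Id2Δ/Δ library, which in stem cells allows a level of up to 0.862 CPM (3 counts).

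Cells were clustered without the replication, mitotic and E2F genes and were named by likeness to marker lists. The stem class held 206 Id2+/+ and 353 Id2Δ/Δ cells, the platelet-biased class 56 and 63, the erythroid class 44 and 169, and the neutrophil class 27 and 40. All 12 stem markers were detected in the stem cells of both libraries, at a summed level of 1292 CPM in Id2+/+ and 980 CPM in Id2Δ/Δ cells, against at most 630 CPM in any other class. The neutrophil and erythroid cells lie outside the sorted phenotype. In platelet-biased cells Ly6a, the gene of Sca-1, was at 4.68 CPM (Id2+/+) and 10.8 CPM (Id2Δ/Δ), against 125 and 83.6 CPM in stem cells. Slamf1, the gene of CD150, was at 28.1 and 24.9 CPM there, against 28.2 and 34.5 CPM in stem cells. Whether the platelet-biased cells fit the sorted phenotype was not tested. The stem class takes in 2 clusters that no marker list named (23 Id2+/+ and 215 Id2Δ/Δ cells). One of them was led by the histone gene Hist1h2bc and came closest to the platelet-biased list, with 6 of its markers past the fold. The other was led by the replication gene Ung and had 0 markers past the fold of the list it came closest to, that of monocytes, macrophages and dendritic cells. Stem markers summed to 776 CPM in the Hist1h2bc cluster and 780 CPM in the Ung cluster. They summed to 1190 to 1822 CPM in the clusters named stem, and to 609 and 462 CPM in the platelet-biased clusters. In all classes except neutrophil, different clusters held most cells of each library. For the stem class these were clusters led by Jun (127 of 206 Id2+/+ cells) and by Ung, Cd74 and Hist1h2bc (138, 110 and 77 of 353 Id2Δ/Δ cells). The platelet-biased cells were mostly in a cluster led by F2r in Id2+/+ (49 cells) and in one led by Pf4 in Id2Δ/Δ (60 cells). The erythroid cells came mainly from clusters led by Hist1h2ap (27 Id2+/+ cells) and Mt2 (103 Id2Δ/Δ cells).

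The replication genes were lowest in stem cells and highest in erythroid cells of both libraries. Their summed level in Id2+/+ cells was 2744 CPM (2661 to 2830) in stem, 4803 (4635 to 4975) in platelet-biased, 4753 (4556 to 4956) in neutrophil and 7130 (6991 to 7272) in erythroid cells. In Id2Δ/Δ cells it was 3608 CPM (3545 to 3671) in stem, 5691 (5557 to 5828) in platelet-biased, 4653 (4497 to 4812) in neutrophil and 7652 (7584 to 7720) in erythroid cells. The Id2+/+ platelet-biased and neutrophil levels overlapped, while in Id2Δ/Δ cells the platelet-biased level lay above the neutrophil one. Relative to stem cells, the erythroid level was 2.60-fold (2.51 to 2.70) in Id2+/+ and 2.12-fold (2.08 to 2.16) in Id2Δ/Δ cells. The platelet-biased level was 1.75-fold (1.67 to 1.83) and 1.58-fold (1.53 to 1.62), and the neutrophil level 1.73-fold (1.64 to 1.82) and 1.29-fold (1.24 to 1.34). In 9 Id2+/+ and 13 Id2Δ/Δ erythroid cells most UMIs were haemoglobin transcripts, and there the summed level was 579 and 501 CPM.

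**Figure D1:**
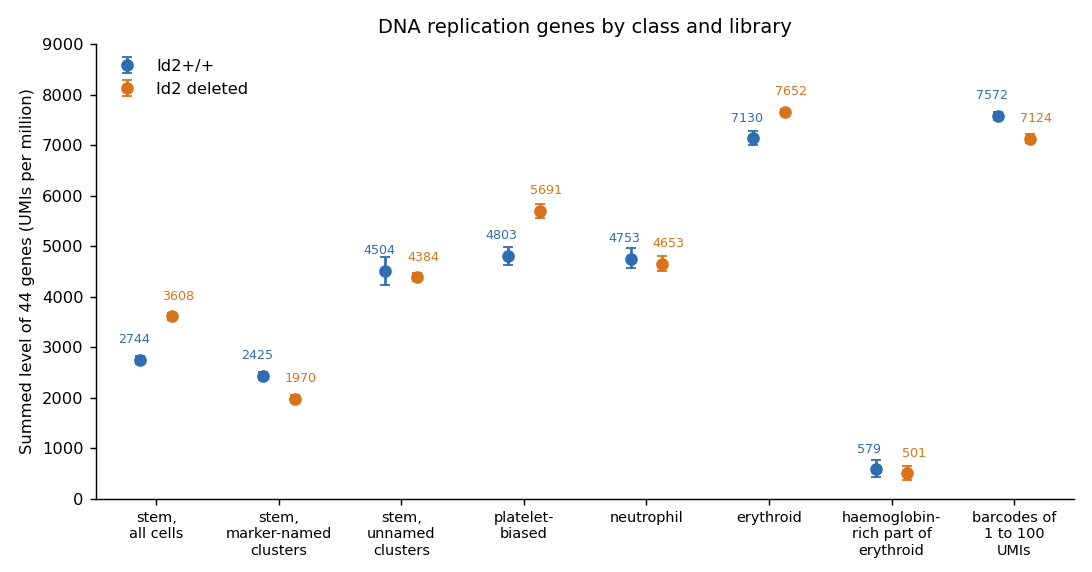
Summed level of the 44 DNA replication genes (y axis, CPM) by class (x axis) in the Id2+/+ (blue) and Id2Δ/Δ (orange, "Id2 deleted") libraries, with 95% counting intervals as bars. Stem cells as a whole are higher in Id2Δ/Δ (3608 against 2744), but both sets of clusters within the stem class are not (1970 against 2425, and 4384 against 4504), and barcodes of 1 to 100 UMIs sit near the erythroid level.

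A gene was counted as past the fold when its ratio was at least 1.5, or at most the reciprocal, with at least 20 UMIs over both sides. In erythroid over stem cells, 37 of 44 replication genes were higher past the fold in Id2+/+ (18.6% of all genes tested) and 33 of 44 in Id2Δ/Δ (18.9% of all). Their median log2 ratio was 1.36 and 0.99, beside -0.32 over all genes in both libraries. In platelet-biased over stem cells, 29 of 43 tested were higher past the fold in Id2+/+ and 28 of 44 in Id2Δ/Δ (10.7% of all genes in each library). In neutrophil over stem cells the count was 27 of 43 tested in Id2+/+ (12.6% of all) and 11 of 44 in Id2Δ/Δ (10.8% of all).

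The roles separated the classes unequally. Nucleotide supply (Tyms, Rrm1, Rrm2) stood furthest above stem cells in erythroid cells, at 5.26-fold (4.66 to 5.96) in Id2+/+ and 4.98-fold (4.65 to 5.34) in Id2Δ/Δ. Rrm2, the regulated subunit of ribonucleotide reductase, was at 67.7 CPM in Id2+/+ stem, 96.6 in platelet-biased, 446 in neutrophil and 484 in erythroid cells. In Id2Δ/Δ cells it was at 60.6, 175, 410 and 618 CPM in the same order. In neutrophil cells Rrm2 was at 6.59-fold and 6.77-fold the stem level, and Rrm1, the large subunit, at 1.58-fold and 1.38-fold. Much of the stem level may be free RNA (droplet RNA from other cells, estimated below from haemoglobin), and with it subtracted these folds were 22.4 and 12.6 for Rrm2 and 2.35 and 1.53 for Rrm1. For Rrm2 these folds divide by small net stem levels of 19.8 and 32.2 CPM and have no interval, so their size is not read. The replicative helicase was 2.40-fold (2.24 to 2.57) and 1.77-fold (1.70 to 1.83) its stem level in erythroid cells, and the clamp and its loader 1.98-fold (1.82 to 2.14) and 1.63-fold (1.56 to 1.71).

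Several members departed from this order. Rfc2, a clamp loader subunit, was 1.05-fold its stem level in Id2+/+ and 0.86-fold in Id2Δ/Δ erythroid cells. Ung, which removes uracil from DNA, was 1.62-fold its stem level in Id2+/+ erythroid cells but 0.63-fold in Id2Δ/Δ ones. Chaf1b, a subunit of the chromatin assembly factor, was 0.43-fold and 0.62-fold its stem level in neutrophil cells, and Pola2, a subunit of polymerase alpha, 0.54-fold (0.22 to 1.15) and 0.53-fold (0.27 to 0.97). Mcm10 was at 8.04, 10.9, 15.2 and 45.7 CPM in stem, platelet-biased, neutrophil and erythroid cells of Id2+/+ mice, and at 9.19, 18.3, 11.0 and 41.7 CPM in those of Id2Δ/Δ mice. It thus stood clear of its stem level in erythroid cells of both libraries (5.68-fold and 4.54-fold), while its levels in the other classes rest on 7 to 22 UMIs. Only the platelet-biased level in Id2Δ/Δ cells stood apart there from the stem level (1.99-fold, 1.10 to 3.53).

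Free RNA carried the replication genes at about the erythroid level. Barcodes of 1 to 100 UMIs held them at 7572 CPM in the Id2+/+ and 7124 CPM in the Id2Δ/Δ library. By the haemoglobin UMIs in stem cells, free RNA made up 10.8% of Id2+/+ and 5.77% of Id2Δ/Δ stem cell UMIs. That would give 816 CPM of the 2744 and 411 CPM of the 3608 (29.7% and 11.4%). For single genes the share ran from 9.51% for Rfc1 to 122% for Cdc45 in Id2+/+ stem cells, with 5 of 44 above 50%. The level of Cdc45 in Id2+/+ stem cells (7.37 CPM) is therefore not distinguishable from free RNA (8.97 CPM by the same estimate).

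Id2Δ/Δ stem cells held more replication transcripts than Id2+/+ stem cells when the class was taken whole. The summed ratio was 1.31 (1.27 to 1.36). Of 44 members, 39 had a ratio above 1 (42.3% of 10003 genes), 28 had an interval above 1 (8.91% of all) and 11 were higher past the fold (4.37% of all). None was lower past the fold (14% of all genes), and only Pcna had an interval below 1. The median log2 ratio was 0.40, beside -0.07 over all genes. With free RNA subtracted 26 were higher past the fold (7.21% of all), and with each library clustered on its own 32 (10.6% of all). The latter setting changed the classes, to 389 stem and 132 erythroid Id2Δ/Δ cells from 353 and 169. Without the filter on mitochondrial UMIs 1 member was higher (3.94% of all) and 4 were lower (14.8% of all). The 16 mitotic genes summed to 554 CPM in Id2+/+ and 565 CPM in Id2Δ/Δ stem cells (ratio 1.02, 0.94 to 1.11). With free RNA subtracted, the ratio was 1.57 for the replication genes and 1.44 for the mitotic genes (273 and 392 CPM). The immediate early genes, such as Fos and Jun, moved with the libraries too, at 1682 and 578 CPM (ratio 0.34), and their part in the result was not tested. Markers of other cell types in stem cells were not alike either. The 18 erythroid markers summed to 3306 and 3082 CPM, the 13 neutrophil markers to 1195 and 732 CPM with Ly6g at 0 in both libraries, and the 14 platelet-biased markers to 577 and 795 CPM. Their part was not tested.

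The difference rested on which clusters were counted. In the clusters that the stem markers named (183 Id2+/+ and 138 Id2Δ/Δ cells), the summed level was 2425 CPM (2340 to 2512) in Id2+/+ and 1970 CPM (1889 to 2054) in Id2Δ/Δ cells, so the ratio turned to 0.81 (0.77 to 0.86). There, 0 of 40 tested members were higher past the fold (6.2% of all genes) and 11 were lower (11.7% of all). Those 11 were Mcm2, Gins1, Cdt1, Pola2, Pcna, Rfc4, Fen1, Lig1, Exo1, Hells and Ung. In the clusters without a name the level was 4504 CPM (4233 to 4787) in Id2+/+ and 4384 CPM (4300 to 4469) in Id2Δ/Δ cells, a ratio of 0.97 (0.91 to 1.04), while the mitotic genes were at 2001 and 705 CPM. Neither set of clusters was thus higher in Id2Δ/Δ cells. The clusters without a name, which carried the higher level, made up 215 of 353 Id2Δ/Δ but 23 of 206 Id2+/+ stem cells. With stem and platelet-biased cells counted together the levels were 3364 and 4143 CPM (ratio 1.23, 1.2 to 1.27), with 5 members higher past the fold (3.76% of all) and 1, Gins3, lower (13.3% of all). Without the filter on mitochondrial UMIs the stem ratio was 1.05. The classes changed with it, to 323 stem and 100 platelet-biased Id2Δ/Δ cells from 353 and 63. The part of this change in the ratio was not tested.

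Among helicase genes of the whole stem class, Mcm6 was at 208 CPM (186 to 233) in Id2+/+ and 293 (276 to 312) in Id2Δ/Δ cells, a ratio of 1.41 (1.24 to 1.60). Mcm3 was at 141 and 231 CPM (ratio 1.63, 1.40 to 1.91), Mcm4 at 46.9 and 85.6 CPM (1.82, 1.40 to 2.40) and Mcm5 at 87.8 and 141 CPM (1.60, 1.32 to 1.96). Free RNA would give 57.7% of the Id2+/+ level of Mcm5, and its ratio with free RNA subtracted was 3.11. Mcm3, Mcm4 and Mcm5 did not overlap between the libraries. In the marker-named stem clusters the ratios turned to 0.82 for Mcm6, 0.91 for Mcm3, 0.94 for Mcm4, 0.92 for Mcm5 and 0.63 for Mcm2. Cdc45, which joins the ring to make it active, was at 7.37 CPM from 11 UMIs and 20.4 CPM from 71 UMIs. Since free RNA could give all of its Id2+/+ level, no fold is read for it, although it is counted among the 11. The 10 helicase genes summed to 810 and 1167 CPM (1.44, 1.35 to 1.54). Mcm2, the ring subunit with the smallest ratio, was at 123 and 148 CPM (1.21).

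Among licensing and priming genes, Gmnn, the inhibitor of Cdt1, was at 65.0 CPM in Id2+/+ and 95.1 CPM in Id2Δ/Δ stem cells (1.46, 1.16 to 1.85), and none of the 5 licensing genes passed the fold. Prim1, the catalytic primase subunit, was at 55 and 72.4 CPM (1.32, 1.02 to 1.71). Pold1, the catalytic subunit of the lagging strand polymerase, was at 31.5 and 41.6 CPM, and its interval held 1 (0.95 to 1.88). In the marker-named stem clusters the ratios of Prim1 and Pold1 turned to 0.91 and 0.82. The 2 polymerase genes and the 4 primase and polymerase alpha genes had summed ratios of 1.08 (0.83 to 1.43) and 1.17 (0.99 to 1.40), so neither group was set apart from 1 by counting error.

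At the fork, Rfc2 was at 193 and 256 CPM (1.33, 1.16 to 1.52) and Rpa2, the middle subunit of the single-strand binding complex, at 105 and 133 CPM (1.26, 1.05 to 1.52). Lig1, which joins Okazaki fragments, was at 61 and 93 CPM (1.53, 1.21 to 1.95), and Fen1, which cuts their flaps, at 81.1 and 85.3 CPM (1.05, 0.85 to 1.31). Exo1, a nuclease of repair and flap processing, was at 12.7 and 23.0 CPM (1.80, 1.08 to 3.15). In the marker-named stem clusters the ratios turned to 0.62 for Lig1, 0.42 for Exo1, 0.60 for Fen1 and 0.74 for Rpa2. The ratio of Lig1 also turned below 1 without the filter on mitochondrial UMIs. Free RNA would give 49.8% of the Id2+/+ level of Fen1, and with free RNA subtracted the ratios were 1.59 for Fen1 and 1.83 for Lig1. The difference between them was not tested. Fen1 shares its span with Tmem258, and 8 other members overlap another gene, Ung among them, so their UMIs may include that neighbour.

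Among genes that work behind the fork, Hells, a chromatin remodeller needed for DNA methylation, was at 44.2 and 73.8 CPM (1.67, 1.27 to 2.22). Uhrf1, which brings Dnmt1 to newly copied DNA, was at 28.2 and 46.2 CPM (1.64, 1.16 to 2.36), and Chaf1a at 25.5 and 39.9 CPM (1.57, 1.09 to 2.31). Chaf1b, its partner in chromatin assembly, was at 79.8 and 89.0 CPM with an interval that held 1 (0.90 to 1.39). Of the fork protection genes, Tipin was at 107 and 148 CPM (1.39, 1.16 to 1.67) and its partner Timeless at 20.8 and 35.3 CPM (1.70, 1.14 to 2.61). Rrm1 was at 71.1 and 96.8 CPM (1.36, 1.09 to 1.71). Free RNA would give 54.2% of its Id2+/+ level, and without the filter on mitochondrial UMIs its ratio turned to 0.87. Ung was at 41.6 and 85.9 CPM (2.07, 1.57 to 2.76), and it led one of the clusters without a name. In the marker-named stem clusters the ratios turned to 0.90 for Rrm1, 0.55 for Hells, 0.81 for Chaf1a, 0.79 for Timeless, 0.83 for Tipin and 0.55 for Ung. That of Uhrf1 fell to 1.08 there.

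**Figure D2:**
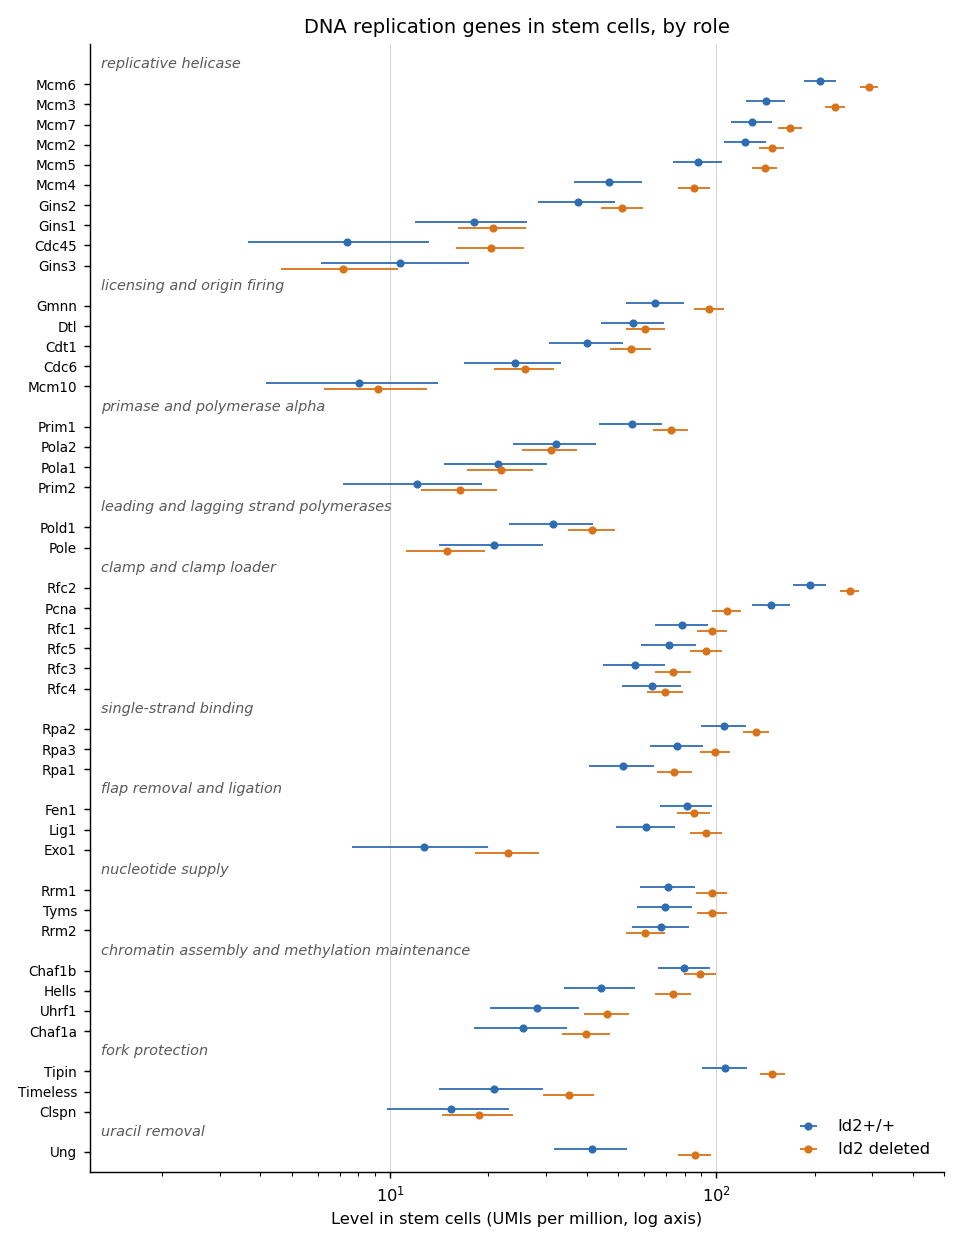
Level of each of the 44 genes in stem cells (x axis, CPM, log scale), grouped by role, in Id2+/+ (blue) and Id2Δ/Δ (orange) libraries with 95% counting intervals. Most genes are shifted to the right in Id2Δ/Δ cells, among them Mcm4 and Ung, while Pcna (147 against 108) is shifted to the left.

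Pcna was the member with a counting interval below 1 in stem cells. Another 4 members had ratios below 1 there with intervals that held 1, namely Gins3 (0.67, 0.34 to 1.34), Pole (0.72, 0.45 to 1.16), Rrm2 and Pola2. It lies on chromosome 2 (GRCm38, 132249286 to 132253180). It was at 147 CPM (129 to 168) in Id2+/+ and 108 CPM (97.1 to 119) in Id2Δ/Δ stem cells, a ratio of 0.73 (0.62 to 0.87). In platelet-biased cells it was at 240.0 and 193 CPM (0.80, 0.65 to 0.99), in erythroid cells at 424 and 275 CPM (0.65, 0.59 to 0.71) and in neutrophil cells at 206 and 113 CPM (0.55, 0.40 to 0.75). Pcna was thus lower in Id2Δ/Δ cells of all 4 classes, with each interval below 1, which held for no other of 41 members tested in every class and for 2.5% of 4761 genes. In the whole stem class its clamp loader was not lower with it, and Rfc1, Rfc2, Rfc3 and Rfc5 had intervals above 1. In the marker-named stem clusters, where the Pcna ratio was 0.43, Rfc4 was at 0.63, Rfc5 at 0.86 and Rfc3 at 0.96. Rfc1 (1.07) and Rfc2 (1.02) stayed above 1 there. In barcodes of 1 to 100 UMIs Pcna did not differ in this direction (199 and 215 CPM, ratio 1.08). The pseudogene Pcna-ps2, which shares sequence with Pcna, was also lower in Id2Δ/Δ cells, at 10.7 and 3.73 CPM in stem and 58.6 and 16.5 CPM in erythroid cells. Under the alternatives tried, the Pcna ratio ranged from 0.43 to 0.98 in stem and from 0.42 to 0.72 in erythroid cells.

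By the summed ratio with the main settings, the 2 libraries were closer in the other classes. In platelet-biased cells the summed ratio was 1.19 (1.14 to 1.24), and 10 of 43 tested members were higher past the fold (10.1% of all genes) and 0 lower (14.8% of all). They included Tyms (128 and 250 CPM, 1.96) and Clspn (20.3 and 53.2 CPM, 2.62), a fork protection gene. The helicase was alike there (1607 and 1648 CPM, ratio 1.03, 0.95 to 1.11), whereas nucleotide supply was higher (355 and 640 CPM, 1.80, 1.55 to 2.10), and Rrm2 rested on 62 and 211 UMIs (1.81, 1.36 to 2.45). Other lists moved with the libraries in these cells as well. The mitotic genes were at 891 and 2088 CPM (ratio 2.34) and the immediate early genes at 835 and 234 CPM. The 14 platelet-biased markers summed to 5096 and 8139 CPM, the 18 erythroid markers to 3547 and 2372 CPM, and the 13 neutrophil markers to 938 and 438 CPM with Ly6g at 0 in both. Their part in the result was not tested. In stem cells the Rrm2 ratio was 0.89 (0.70 to 1.15), but free RNA would give 73.9% of its Id2+/+ and 49.9% of its Id2Δ/Δ level there. With free RNA subtracted the ratio turned to 1.63, and with each library clustered on its own to 2.70, so no direction is read for Rrm2 in stem cells.

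In erythroid cells the summed ratio was 1.07 (1.05 to 1.10). Only Cdc45 was higher past the fold (42.9 and 70.8 CPM, 1.65, 1.26 to 2.2; 6.48% of all genes) and only Pcna lower (10.9% of all). Without the haemoglobin-rich cells the levels were 7534 and 7779 CPM, a ratio of 1.03, and among the cells that had UMIs of Y-linked genes but none of Xist it was 0.90. In the latter cells the Cdc45 ratio turned to 0.86, with 2 members higher (19% of all) and 5 lower (11% of all) past the fold. Over all erythroid cells the 13 neutrophil markers summed to 803 and 358 CPM and the 14 platelet-biased markers to 111 and 99 CPM. The part of these markers was not tested. In neutrophil cells the summed ratio was 0.98 (0.93 to 1.03). There, 3 of 41 tested members were higher past the fold (Chaf1b, Prim1 and Gins1; 8.99% of all genes), each with an interval that held 1. Another 3 were lower (Exo1, Hells and Pcna; 11.8% of all), and of these Hells (141 and 77.1 CPM, 0.55) and Pcna had intervals below 1. In neutrophil cells the 8 monocyte, macrophage or dendritic markers summed to 803 and 2128 CPM and the 14 platelet-biased markers to 193 and 640 CPM. The 18 erythroid markers there summed to 1665 and 1048 CPM, and the part of these markers was not tested. Across the classes, 17 of 41 members had a ratio above 1 in all 4, beside 17.8% of genes.

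**Figure D3:**
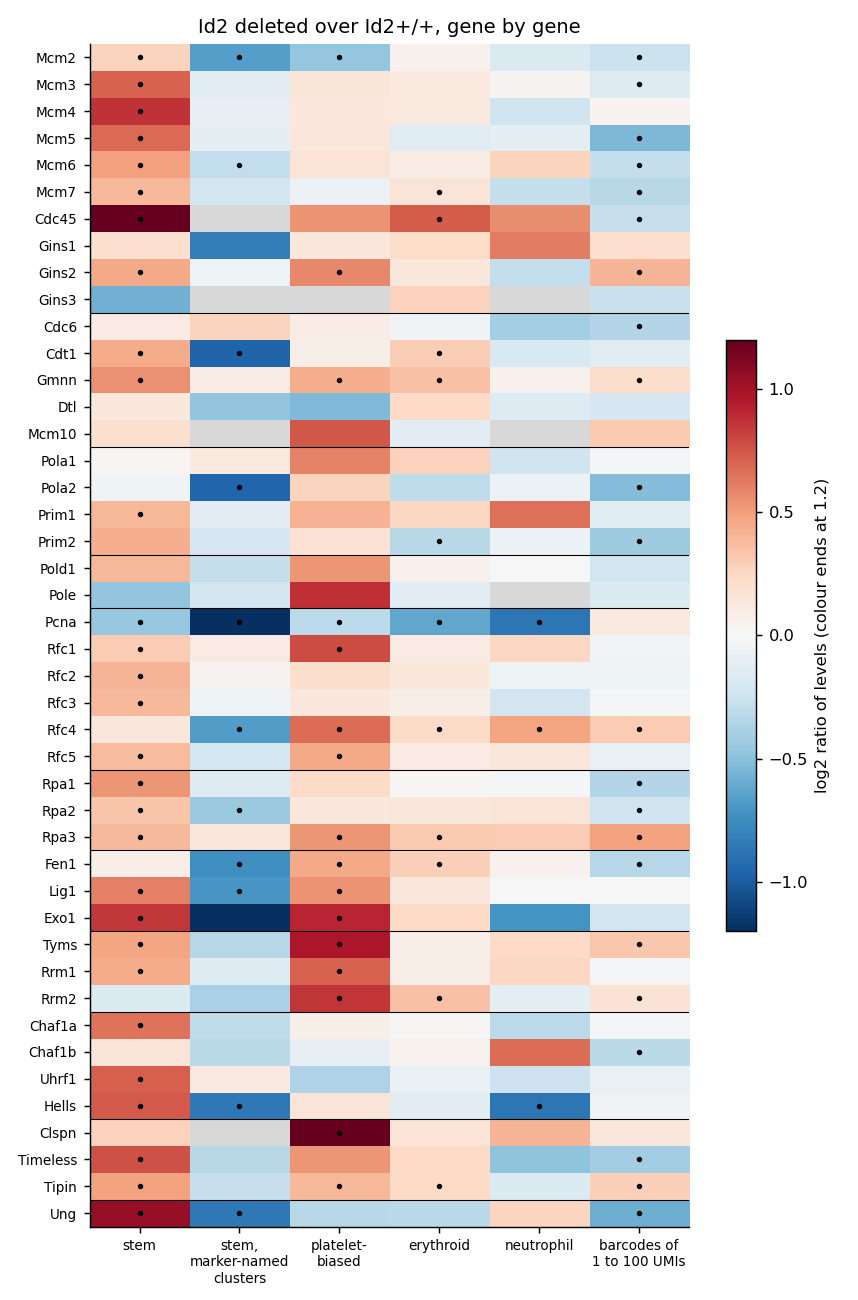
Log2 ratio of Id2Δ/Δ over Id2+/+ level for each gene (rows, lines between roles) in each class and in barcodes of 1 to 100 UMIs (columns), where red is higher in Id2Δ/Δ, blue lower, grey under 20 UMIs, and a dot marks a 95% counting interval that leaves out 1. The stem column is mostly red (28 intervals above 1), the column of marker-named stem clusters mostly blue (11 below 1 and none above), and Pcna is blue in all 4 classes.

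Genes of replication outside the 44 were also higher in sum in stem cells. Of 51 tested, 13 were higher and 4 lower past the fold, beside the 4.37% and 14% of all genes given above, and their sum was at 2805 and 3448 CPM (1.23, 1.19 to 1.27). With at least 50 UMIs, genes of high ratio were Pole2, a subunit of the leading strand polymerase (12.1 and 25.3 CPM, 2.09), and Dscc1, part of an alternative clamp loader (8.71 and 16.9 CPM, 1.94). At the same minimum, the lowest ratios were those of the mismatch repair gene Msh6 (38.2 and 23.5 CPM, 0.62), of Dbf4, the activator of the origin-firing kinase (24.1 and 15.5 CPM, 0.64), and of Orc5, of the origin recognition complex (19.4 and 13.8 CPM, 0.71), and the intervals of the last pair held 1. In the marker-named clusters this list was at 2525 and 2322 CPM (0.92, 0.87 to 0.97). The E2F factors and their partners were alike in sum in stem cells (267 and 281 CPM, 1.05, 0.93 to 1.18).

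To compare single cells, each was thinned to 5800 UMIs, which left out 64 shallower Id2+/+ stem cells and no Id2Δ/Δ stem cell. A median of 10 of the 44 genes was then detected per Id2+/+ stem cell (quartiles 7 and 14) and of 11 per Id2Δ/Δ stem cell (7 and 17). The libraries thus differed little in the typical stem cell kept at this depth, and the medians over 20 other draws ran from 9 to 10 and from 10 to 11. Free RNA was not subtracted here. By the estimate above it would give 29.7% of the replication level in Id2+/+ and 11.4% in Id2Δ/Δ stem cells. Before thinning the medians were 10 and 14, at median depths of 6615 and 9027 UMIs. The platelet-biased medians were 15.5 and 20 genes, the neutrophil ones 16 and 17, the erythroid ones 21 and 23, and the haemoglobin-rich ones 3 and 3.

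At least 30 UMIs of the replication genes were carried by 14.1% (8.82 to 20.9, exact) of 142 Id2+/+ stem cells and by 18.7% (14.8 to 23.2) of 353 Id2Δ/Δ stem cells, and these intervals overlap. The upper quartile was 18.75 UMIs in Id2+/+ and 26 UMIs in Id2Δ/Δ stem cells, with medians of 12 and 13 UMIs. At a depth of 6900 UMIs the upper quartiles were 28 and 32 UMIs and the medians 16 and 18. That depth kept 89 Id2+/+ stem cells and left out 117, while it kept 307 Id2Δ/Δ stem cells and left out 46. The share at 30 UMIs or more was 35.2% and 54.0% in platelet-biased, 25.9% and 40.0% in neutrophil and 73.8% and 82.2% in erythroid cells. The intervals of the libraries overlapped in each of these classes. The neutrophil order turned at 6900 UMIs, with 59.3% in Id2+/+ and 47.5% in Id2Δ/Δ cells. Over 20 other draws the Id2+/+ erythroid share ran from 59.5% to 71.4%, below the draw shown. Replication transcripts were spread less evenly in stem cells, where the 10% of cells with most of them held 28.5% in Id2+/+ and 26.1% in Id2Δ/Δ, against 15.9% to 18.9% in the other 3 classes.

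**Figure D4:**
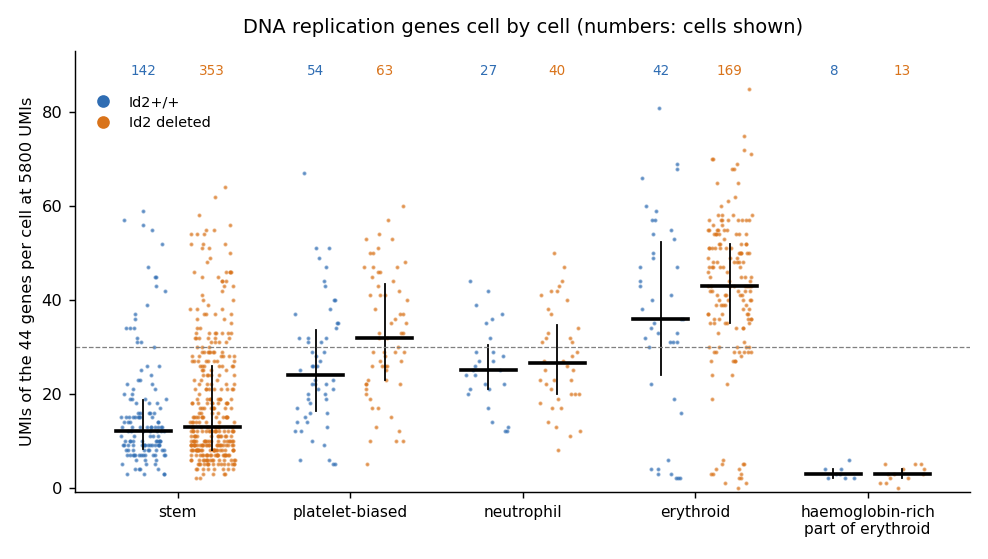
UMIs of the 44 genes per cell after thinning each cell to 5800 UMIs (y axis) by class (x axis) in Id2+/+ (blue) and Id2Δ/Δ (orange) libraries, 1 dot a cell, with thick lines at medians, thin lines over quartiles and a dashed line at 30 UMIs. Stem cells have medians of 12 and 13 with a tail upward, erythroid cells medians of 36 and 43, and the haemoglobin-rich cells, which are also among the erythroid dots, lie near 3.

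Within stem cells the replication genes were compared between cells with few and many UMIs of the mitotic genes, which were no part of the list. In thinned Id2+/+ stem cells the summed level was 2283 CPM in the 25 cells with 0 mitotic UMIs, 2307 in the 74 with 1 or 2, 2984 in the 23 with 3 or 4 and 4612 in the 12 with 5 to 9. In Id2Δ/Δ stem cells it was 2545 CPM (63 cells), 2969 (174), 3603 (67) and 5398 (26) in the same order. The level was thus higher at 5 to 9 than at 0 mitotic UMIs in both libraries, and in cells with 1 to 4 mitotic UMIs the Id2Δ/Δ levels lay above the Id2+/+ ones without overlap. Free RNA also carries mitotic UMIs, and its part in the lower bins was not tested.

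At 10 or more mitotic UMIs, a limit set after the values were seen, the libraries parted. The 8 Id2+/+ cells summed to 5000 CPM (4377 to 5686), from 232 UMIs with a median of 28.5 per cell. The 23 Id2Δ/Δ cells were at 2744 CPM (2470 to 3040), from 366 UMIs with a median of 11 per cell. That is near the Id2Δ/Δ cells with 0 mitotic UMIs (1.08-fold, 0.95 to 1.22). These intervals leave out spread between cells, and with 8 cells a few can carry the sum. The helicase was at 1698 CPM in Id2Δ/Δ cells with 5 to 9 mitotic UMIs and at 810 CPM in those with 10 or more, and nucleotide supply at 550 and 247 CPM. In Id2+/+ cells the helicase was at 1250 and 1422 CPM and nucleotide supply at 489 and 603 CPM in these bins. The Id2+/+ values rest on 12 and 8 cells, whose intervals overlap for both roles.

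**Figure D5:**
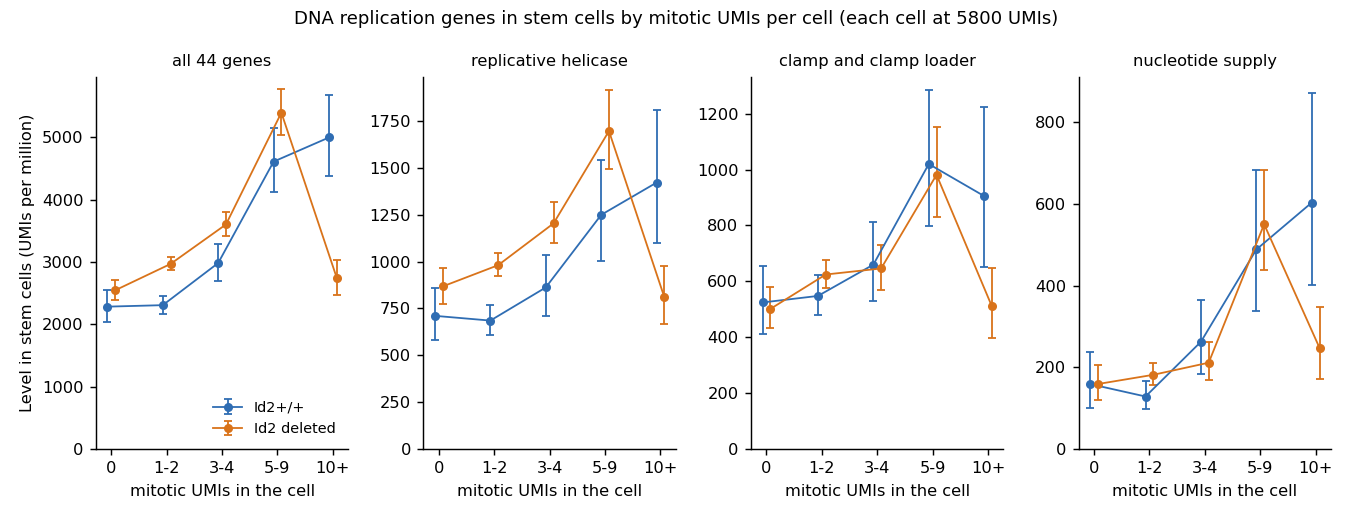
Level in stem cells (y axes, CPM, from 0) of all 44 genes and of 3 roles by the number of mitotic UMIs in the cell (x axes) after thinning to 5800 UMIs, in Id2+/+ (blue) and Id2Δ/Δ (orange) libraries, with 95% counting intervals. The sum is highest at 5 to 9 mitotic UMIs in Id2Δ/Δ cells (5398) and drops to 2744 at 10 or more. The 8 Id2+/+ cells at 10 or more sum to 5000, with spread between cells left out of the interval.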

How the data were processed

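The authors deposited raw UMI counts per gene and barcode for each of 2 libraries, made per the submitters' processing notes with Cell Ranger 2.2.0 and mm10. No cell calls or cell types were used from the files. The 1000 deepest barcodes were ranked, and barcodes with at least 10% of the UMI count at their 99th percentile were called cells (349 and 632, against 383 and 686 in the labels), and those with under 10% mitochondrial UMIs were kept. Both libraries were clustered together with scanpy 1.11.5 (2000 variable genes, 20 components, 15 neighbours, Leiden resolution 1) after the replication, mitotic and E2F genes were left out. A platelet-biased, erythroid or neutrophil name needed 3 markers with a log2 fold over 0.5 that were seen in 10% or more of the cells, and 2 among the 10 leading genes. The last threshold, and the placing of unnamed clusters with stem cells, were set after the clusters were seen. No doublets were removed. Scrublet marked 2 and 1 cells, which were left out as an alternative.

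Counts were summed per class and library. Intervals are exact Poisson (levels), exact conditional (ratios) and Clopper-Pearson (shares) at 95%, were tested on simulated data and cover counting error only. PCR duplicates are removed by UMIs, and variation between mice is not covered. Single genes were described by a fixed rule: in each role the member with most stem cell UMIs, members past the fold in stem or erythroid cells with an interval that leaves out 1, Mcm10 in every class, and the 3 highest and 3 lowest of the other replication genes with at least 50 UMIs, of which 1 is not reported here. Genes named outside it, such as Rrm2, Mcm2, Tyms and Clspn, were chosen after their values were seen. The members and lists were chosen with earlier results of these data known. Positions are from RefSeq GRCm38.p6. The planned search of promoters for motifs was not run, as no promoter sequences were used here.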

Additional observations from a re-analysis of the deposited data

Results flagged for a closer look

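Among the members, 2 had counting intervals on opposite sides of 1 in different classes when Id2Δ/Δ was compared with Id2+/+. The difference between the classes was not tested. Mcm2, a subunit of the helicase ring, had a ratio of 1.21 in stem cells (123 and 148 CPM) and 0.72 in platelet-biased cells (313 and 227 CPM). Under 12 alternatives its platelet-biased ratio ran from 0.58 to 0.79, while its stem ratio lay below 1 under 3 of 14. Hells, the chromatin remodeller, had a ratio of 1.67 in stem cells (44.2 and 73.8 CPM) and 0.55 in neutrophil cells (141 and 77.1 CPM), from 65 and 56 UMIs in the latter. Its neutrophil ratio ran from 0.50 to 0.74, and its stem ratio lay below 1 under 1 of 14.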

How the results depend on the processing

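No paired analysis was possible because there is a single library of either genotype, and no replicate could be left out. Over 211 recomputed values for the main comparisons, 132 stayed within their counting interval, quartiles or 1.5 times the count, 77 moved further and 2 turned direction. Stem cells were lowest and erythroid cells highest of the 4 classes under every alternative run, while the stem difference between libraries depended on which clusters were counted. The cause of each shift was not tested. Percentages beside a count of genes past the fold are the share of all genes tested that passed it in the same direction under the same setting. Depth limits the rarer members, such as Mcm10 (12 and 32 UMIs) and Cdc45 (11 and 71 UMIs) in stem cells, and the intervals leave out variation between mice, sorts and captures.

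Where stem cells were only those in marker-named clusters (chosen after seeing the data), the stem ratio turned to 0.81, with 0 genes higher (6.2% of all genes) and 11 lower past the fold (11.7%). The ratios over stem cells in Id2+/+ and Id2Δ/Δ were then 1.98 and 2.89 for platelet-biased, 2.94 and 3.88 for erythroid and 1.96 and 2.36 for neutrophil cells. The stem ratios of Mcm2 (0.63), Mcm3 (0.91), Mcm4 (0.94), Mcm5 (0.92), Mcm6 (0.82), Mcm7 (0.85), Gins2 (0.96), Cdt1 (0.51), Prim1 (0.91), Rfc3 (0.96), Rfc5 (0.86), Rpa1 (0.90), Rpa2 (0.74), Lig1 (0.62), Exo1 (0.42), Tyms (0.79), Rrm1 (0.90), Chaf1a (0.81), Hells (0.55), Timeless (0.79), Tipin (0.83) and Ung (0.55), whose intervals had been above 1, turned below 1. So did those of Gins1 (0.56), Dtl (0.72), Prim2 (0.87), Pold1 (0.82), Rfc4 (0.63), Fen1 (0.60) and Chaf1b (0.80), whose intervals had held 1. With stem and platelet-biased cells together (also chosen after seeing the data) the ratio was 1.23, with 5 genes higher (3.76%) and 1 lower (13.3%), and Mcm2 turned to 0.93.

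Without the mitochondrial filter the stem ratio was 1.05, with 1 gene higher (3.94%) and 4 lower (14.8%), and Mcm2 (0.88), Mcm7 (0.97), Lig1 (0.97) and Rrm1 (0.87) turned below 1. The ratios over stem cells in Id2+/+ and Id2Δ/Δ were then 1.5 and 1.69 (platelet-biased), 2.23 and 2.28 (erythroid) and 1.49 and 1.39 (neutrophil). Under this setting the Id2Δ/Δ stem class held 323 cells and the platelet-biased class 100. With each library clustered on its own the stem ratio was 1.67, with 32 genes higher (10.6%), the erythroid ratio 1.13 with 0 genes lower (11.8%), and the Id2Δ/Δ ratios over stem cells 1.27, 1.81 and 1.05. The Id2Δ/Δ stem class then held 389 cells and the erythroid class 132, against 353 and 169 in the main run. With free RNA subtracted the stem ratio was 1.57, with 26 genes higher (7.21%), and the ratios over stem cells were 2.13 and 1.67 (platelet-biased), 3.29 and 2.26 (erythroid) and 2.13 and 1.35 (neutrophil). With the cell number of the labels the platelet-biased ratio was 1.13, and the ratios over stem cells 1.94 (platelet-biased, Id2+/+), 2.82 and 2.24 (erythroid) and 1.88 and 1.36 (neutrophil).

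With the mean of each cell's CPM the platelet-biased ratio was 1.29 and the erythroid one 1.16, 1 gene was lower in stem (13.8%) and 0 in erythroid cells (9.71%), and the ratios over stem cells were 1.88 and 1.81 (platelet-biased), 2.30 (erythroid, Id2Δ/Δ) and 1.96 and 1.45 (neutrophil). Median of ratios scaling gave 1.38 in stem and 1.04 in erythroid cells. Clustering with the replication, mitotic and E2F genes gave 1.13 in platelet-biased cells, 1.85 for these over stem cells in Id2+/+ and 1 lower gene in stem cells (13.9%). Resolution 1.5 gave 1.11 in platelet-biased cells and 1 lower gene in stem cells (13.4%). Leaving out Scrublet doublets also gave 1 lower gene in stem cells (14%). Without the haemoglobin-rich cluster (chosen after seeing the data) the erythroid ratio was 1.03 and the erythroid level 2.75-fold the stem level in Id2+/+. Where cells had Xist UMIs but none of Y-linked genes, the platelet-biased ratio was 1.10, 3 genes were higher (13.1%) and 2 lower (12.6%) in erythroid cells, and ratios over stem cells were 1.88 (platelet-biased, Id2+/+), 2.21 and 1.38 (erythroid and neutrophil, Id2Δ/Δ). Where they had UMIs of Y-linked genes but none of Xist, the ratios were 1.42 in stem (19 genes higher, beside 8.32% of all, and 3 lower, beside 15.5%), 1.10 in platelet-biased and 0.90 in erythroid cells (2 higher, beside 19% of all, and 5 lower, beside 11%), where Cdc45 turned to 0.86, and the ratios over stem cells were 1.31 (platelet-biased, Id2Δ/Δ), 2.80 and 1.77 (erythroid) and 1.5 and 1.08 (neutrophil).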

Other observations

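In the clusters without a name, the sum of the 44 genes was alike in both libraries (ratio 0.97), but the libraries drew on different clusters. Of the 23 Id2+/+ cells, 16 were in the cluster led by Hist1h2bc and 7 in the one led by Ung, against 77 and 138 of the 215 Id2Δ/Δ cells. Nucleotide supply was at 436 CPM in Id2+/+ and 310 CPM in Id2Δ/Δ cells (ratio 0.71, 0.58 to 0.89), while the helicase was at 1321 and 1439 CPM (1.09, 0.97 to 1.23). Rrm2 was at 144 and 69.9 CPM (0.49, 0.33 to 0.73), Tyms at 192 and 125 CPM (0.65, 0.47 to 0.92), Fen1 at 183 and 108 CPM (0.59, 0.42 to 0.84) and Pcna at 279 and 134 CPM (0.48, 0.37 to 0.64). Mcm3 lay on the other side, at 205 and 284 CPM (1.39, 1.03 to 1.91). These genes were chosen after their values were seen, and the part of the 2 clusters in these values was not tested.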
